A study of Bos grunniens with 3 samples.

Results

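SOX9 and LHX2 are transcription factors of the hair follicle, and their rows are 2 of the 26924 genes of the deposited matrices (ENSBGRG00000026479 and ENSBGRG00000017595). Both were taken by gene symbol, with no measured value in the rule. SOX9 carries an HMG box that binds and bends DNA. It is known for its role in the outer root sheath and in the stem cells of the bulge, the niche of the follicle below the sebaceous gland, and outside the skin for the control of cartilage genes. LHX2 is a LIM homeodomain factor, which binds DNA through its homeodomain and partner proteins such as LDB1 through its LIM domains, and it is known from the bulge and from the hair germ, the small epithelial bud from which a new follicle grows. The follicle cycles through growth (anagen), regression (catagen) and rest (telogen), and the stem cells of the bulge persist through the cycle.

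The series holds 3 10x Genomics single-cell libraries from the skin over the scapula of Tianzhu white yaks about 2 years old, 1 in anagen, 1 in catagen and 1 in telogen, with no treatment. Strips of skin were digested with dispase, single follicles were pulled out, and cells were released with trypsin, so the cells are mostly epithelial. The published methods name 3 yaks and describe skin of anagen and catagen, without telogen. Which animal or animals gave each library is not stated. Stage, animal and library therefore cannot be told apart, no p-value is given, and every interval in this text is a 95% interval that covers counting error only. The library called catagen is named so by its title, description and stage label, whereas the protocol text beside it names anagen.

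After cells with fewer than 200 detected genes had been left out, 11987 anagen, 12062 catagen and 14502 telogen cells remained. The deposited counts are unique molecular identifiers (UMIs), and the median per deposited cell was 5251.5, 3339.5 and 5561. No anagen cell had fewer than 2404 UMIs, the minimum of the other libraries was 500, and 2263 catagen and 2932 telogen cells held fewer than 1500. Anagen and catagen shared 43 cell barcodes, anagen and telogen 40, and catagen and telogen 49. Levels are given in CPM, the gene's UMIs per 1000000 UMIs of the library or of the class of cells. No reference sequence of either gene was used here. In the RefSeq annotation of the assembly Bosgru_T2T1.0, 0 other genes overlapped SOX9 and 0 overlapped LHX2.

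SOX9 was among the more abundant mRNAs of every library, and its level was highest in anagen and lowest in telogen. It reached 618 CPM in anagen (613 to 624), 529 CPM in catagen (522 to 535) and 391 CPM in telogen (387 to 394), from 51217, 27247 and 40400 UMIs. By level it ranked 161st of 17997 detected genes in anagen, 175th of 17940 in catagen and 228th of 17796 in telogen. The log2 ratio was -0.23 (-0.25 to -0.20) for catagen over anagen, -0.66 (-0.68 to -0.64) for telogen over anagen and -0.44 (-0.46 to -0.41) for telogen over catagen. The median gene of those with at least 10 CPM in either library had 0.05, -0.18 and -0.25 in the same comparisons. Relative to that median, SOX9 had -0.27, -0.48 and -0.19. Median-of-ratios size factors were instead taken over all genes with a UMI in every library, so also over genes at low levels. With them in place of the library total, every log2 ratio changes by -0.25, 0.25 and 0.50, and that of SOX9 between telogen and catagen turns to 0.064. The order of SOX9 in those stages therefore depended on the scaling and was not fixed by these data, whereas both stages stayed below anagen under each scaling.

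LHX2 had another order, with the highest level in catagen. It reached 73.8 CPM in anagen (71.9 to 75.6), 107 CPM in catagen (104 to 110) and 49.4 CPM in telogen (48.1 to 50.8), from 6108, 5520 and 5111 UMIs. The log2 ratio was 0.54 (0.49 to 0.59) for catagen over anagen, -0.58 (-0.63 to -0.52) for telogen over anagen and -1.12 (-1.17 to -1.06) for telogen over catagen. With median-of-ratios size factors these values were 0.28, -0.33 and -0.62, so the order of the stages stayed the same. The genes thus differed in direction between anagen and catagen, where SOX9 was lower and LHX2 higher in catagen.

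Set against a ratio of 2 in either direction, only LHX2 in telogen over catagen passed, as 1 of the 2 genes. Among the 5971 genes with at least 10 CPM in either library, 12% were lower past that ratio and 4.1% higher. Neither gene passed in catagen over anagen, where 4.41% of 6054 genes were higher and 3.47% lower, nor in telogen over anagen, where 3% of 5733 genes were higher and 7.83% lower. These backgrounds move with the scaling. Under median-of-ratios size factors, 942 genes were higher and 162 lower in telogen over catagen, against 245 and 717 by library total, and LHX2 no longer passed. For catagen over anagen the counts were 112 higher and 476 lower, against 267 and 210, and for telogen over anagen 325 and 258, against 172 and 449.

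**Figure D1:**
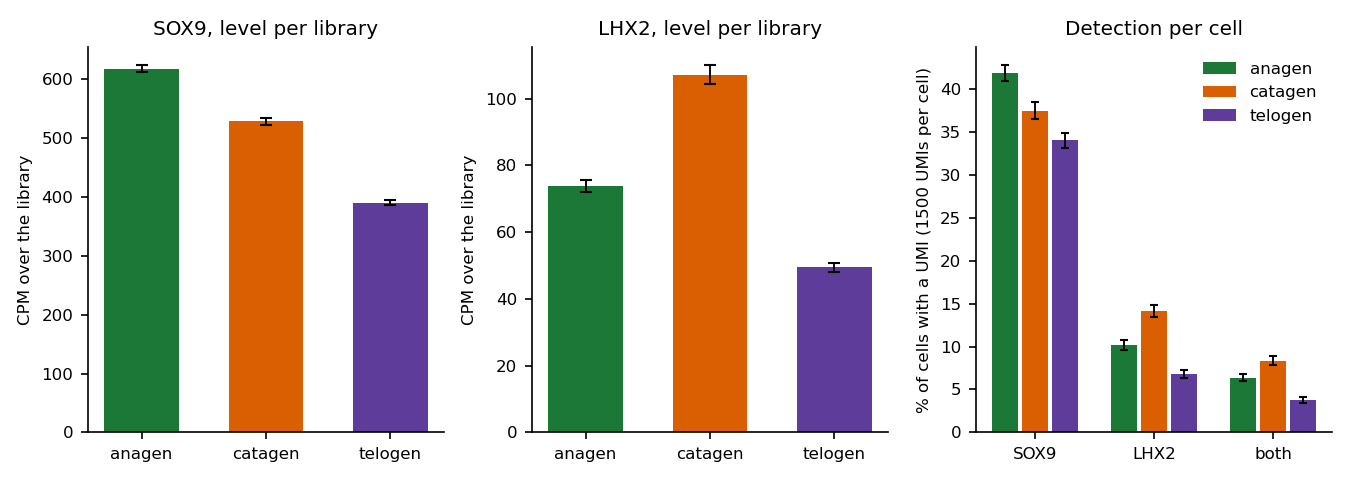
Level of SOX9 and LHX2 in each library in CPM (left and middle) and the share of cells with at least 1 UMI of SOX9, LHX2 or both after thinning to 1500 UMIs per cell (right), with bars for the value and error bars for 95% Poisson or Clopper-Pearson intervals of counting error. SOX9 steps down from 618 to 391 CPM, while LHX2 is highest in catagen at 107 CPM.

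Per cell, the genes were detected in different ways. Without thinning, 63.0% of anagen, 49.96% of catagen and 54.4% of telogen cells held a SOX9 UMI, and 23.5%, 22.5% and 15.1% held an LHX2 UMI. Because depth per cell differs between the libraries, shares are also given for cells thinned to 1500 UMIs, as the exact expectation over random draws, with shallower cells left out. SOX9 was then expected in 41.8% of anagen (41.0 to 42.7), 37.5% of catagen (36.5 to 38.4) and 34.0% of telogen cells (33.1 to 34.9). LHX2 was expected in 10.1% (9.61 to 10.7), 14.1% (13.4 to 14.8) and 6.78% (6.33 to 7.25). At this depth the shares had the order of the levels. Thinning to 3000 UMIs left out 2095 anagen, 5378 catagen and 4511 telogen cells. SOX9 was then expected in 52.4%, 46.5% and 49.6% of cells, with catagen rather than telogen lowest, as without thinning. The order of SOX9 shares in those stages thus changes with the depth and the cells kept, which were not told apart. LHX2 was expected in 15.5%, 17.5% and 10.4% of cells thinned to 3000 UMIs, with catagen highest, whereas anagen was highest without thinning.

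Single cells could hold many SOX9 UMIs. Up to 222, 210 and 198 UMIs were counted in a single anagen, catagen and telogen cell. The 1425 anagen cells with at least 10 SOX9 UMIs held 61.9% of the gene's UMIs, and 607 catagen and 1031 telogen cells of that kind held 47.2% and 48.7%. LHX2 was sparse, with at most 16, 17 and 29 UMIs per cell, and 50.5%, 52.4% and 44.2% of the cells with the gene held a single UMI. The 1199 anagen, 1207 catagen and 1451 telogen cells with the most LHX2 UMIs held 70.3%, 71.1% and 85.7% of them, and the same number of cells with the most SOX9 UMIs held 57.3%, 63.0% and 57.3% of those of SOX9. A cell without an LHX2 UMI can therefore not be read as a cell without the mRNA.

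To place the genes in the follicle, cells were clustered with both left out of the variable genes, anagen and catagen together into 27 clusters (P0 to P26) and telogen alone into 21 (T0 to T20). Clusters were named from listed markers, with "like" added, and those without a clear name go by their leading genes. The bulge-like class holds clusters P4 and P7 and telogen cluster T3. Of the 11 bulge markers on the gene list, the unnamed P16 had 6 raised, but none among its 10 leading genes. The unnamed P17, P21 and T8 had 4 raised each. These 4 clusters fell short of the rule for a name and count among all other cells. The following values are those of the bulge-like class. Its level was above that of all other cells for the listed markers SPARC, POSTN, SFRP1, CXCL14, LGR5, WIF1, DKK3 and NFATC1 in every library. FGF18 was lower there in catagen, at 11.6 CPM against 20.6 CPM in the rest. ANGPTL7 and FRZB were at 0 in bulge-like cells of all 3 libraries, and CD34 was not on the gene list. The class held 728 anagen, 2162 catagen and 1199 telogen cells. Most of its catagen cells (1619) were in P4, at a median of 1740 UMIs, and most of its anagen cells (547) in P7, at a median of 4259 UMIs, so the class differed in makeup and depth between these libraries.

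Against all other cells, which include P16, P17, P21 and T8, LHX2 was concentrated in bulge-like cells. Its level there was 548 CPM in anagen (523 to 573), 400 CPM in catagen (383 to 418) and 266 CPM in telogen (254 to 278), against 53.9, 75.8 and 33.3 CPM in all other cells. These are log2 ratios of 3.35, 2.40 and 3.0, which placed LHX2 58th of 6095, 97th of 6271 and 44th of 5639 genes. SOX9 was also higher in bulge-like cells, at 1120 CPM in anagen (1084 to 1157), 863 CPM in catagen (837 to 889) and 531 CPM in telogen (514 to 548), against 597, 493 and 380 CPM elsewhere. Its log2 ratios were 0.91, 0.81 and 0.48. LHX2 was therefore past a ratio of 2 in every library, where 10.4% of genes in anagen, 7.83% in catagen and 7.16% in telogen were higher in bulge-like cells by that much, and SOX9 was past it in none. With 15 components in place of 30, SOX9 passed in anagen and catagen, at 1.06 and 1.10. The clusters were built from the same cells, so these ratios are a description and not a test.

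In UMIs rather than levels, bulge-like cells gave 29.9% of all LHX2 UMIs in anagen, 36.1% in catagen and 37.4% in telogen, while they gave 4.02%, 9.66% and 6.95% of all UMIs. For SOX9 the shares were 7.28%, 15.8% and 9.45%. Most UMIs of both genes thus lay outside the class, which leaves out P16, P17, P21 and T8. Bulge-like cells thinned to 1500 UMIs held SOX9 in 69.4%, 59.6% and 50.6% of cells and LHX2 in 54.3%, 42.2% and 33.3%. Endothelial-like cells, which lie outside the epithelium, serve as the background, since RNA free in the suspension gives UMIs in droplets of any cell type. There, SOX9 was expected in 17.2% of 83 thinned anagen cells, 3.07% of 23 catagen cells and 10.8% of 41 telogen cells, and LHX2 in 5.18%, 5.63% and 2.42%. The median depth was 3315, 1636.5 and 3500.5 UMIs in those cells and 3877.5, 2046.5 and 4714 in bulge-like cells. SOX9 UMIs were unevenly spread over the endothelial-like cells. In anagen 66 UMIs lay in 27.7% of the 83 cells, and in telogen 62 UMIs lay in 14.6% of 48 cells. Whether a few cells of another kind raised this background in CPM was not tested. In the 49 immune-like cells of telogen 0 LHX2 UMIs were counted, which allows a share of cells with an LHX2 UMI of up to 6.12% and sets no limit on cells with the mRNA, and SOX9 was at 71.8 CPM (34.4 to 132).

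Among the named classes with at least 40 cells in each library, bulge-like cells had the highest level of both genes in all 3 libraries. SOX9 followed in basal epidermal-like cells with 513 CPM in anagen (500 to 527) and 367 CPM in catagen (356 to 379). That class joined unlike clusters. P0, P8 and the CCL27 cluster P5 had SOX9 at 768, 446 and 214 CPM in anagen and at 575, 304 and 130 CPM in catagen. In anagen SOX9 then stood at 253 CPM in S phase-like and 204 CPM in mitotic-like cells. It was at 129, 128 and 74.4 CPM in suprabasal epidermal-like, inner root sheath-like and hair cortex-like cells. The endothelial-like cells lay at 193 CPM (149 to 245), so in CPM SOX9 in the last 3 of these classes was not above that background. Depth differed, with a median of 3315 UMIs in the endothelial-like cells and 8580, 4241.5 and 7215 in the 3 classes. Without thinning, 27.7% of the endothelial-like cells held a SOX9 UMI, against 31.5%, 45.2% and 29.2%, at these unequal depths. In cells thinned to equal depth, SOX9 was expected in 17.2% of the endothelial-like cells (9.80 to 27.1), against 13.7%, 23.1% and 12.3%. These 3 thinned shares lay within that interval. At equal depth, as in CPM, none of the 3 classes was thus above the background beyond counting error. In the order of levels the mitotic-like cells did not differ from the endothelial-like cells beyond counting error, nor did suprabasal epidermal-like from inner root sheath-like cells. In catagen, SOX9 was at 63.8 CPM in S phase-like and 27.3 CPM in inner root sheath-like cells, against 46.0 CPM (12.5 to 118) in the endothelial-like cells. In telogen the order differed, with mitotic-like cells at 306 CPM and suprabasal epidermal-like cells at 285 CPM, against 237 CPM (182 to 304) in endothelial-like and 71.8 CPM in immune-like cells. The endothelial-like cells of telogen also held 1135 CPM of summed fibroblast markers and 1257 CPM of mural or dermal sheath markers, against 2.67 and 232 CPM in all other cells, and 14.6% of them held a SOX9 UMI. In telogen cells thinned to equal depth, SOX9 was expected in 10.8% of the endothelial-like cells (3.26 to 24.4). The shares were 32.5% in mitotic-like cells (28.7 to 36.6) and 26.6% in suprabasal epidermal-like cells (24.9 to 28.4), both above that interval. The suprabasal epidermal-like class of telogen joined T2, with SOX9 at 95.7 CPM, and T5, with 590 CPM and KRT79 among its leading genes, so it was not set against that of the other libraries. The mitotic-like class of telogen was T11 alone, which matched P18, with SOX9 at 449 CPM in anagen, while P9 of that class had 104 CPM. SOX9 in T11 over P18 had log2 ratios of -0.55 (-0.65 to -0.46) to anagen and -0.62 (-0.78 to -0.45) to catagen. The basal epidermal-like class of telogen was T7 alone, at 68.3 CPM. The classes in the order of telogen thus differed in makeup from those of the other libraries.

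Among the named classes with at least 40 cells in each library, LHX2 had a flat second tier in anagen and catagen. S phase-like cells held 70.1 CPM (63.8 to 76.9) in anagen and mitotic-like cells 66.3 CPM (61.2 to 71.7), which did not differ beyond counting error. In catagen the same classes held 102 and 105 CPM. The unnamed clusters P17, P16, P21, P10 and P22 of anagen lay above this tier, at 411, 361, 314, 230 and 130 CPM. Basal epidermal-like cells had 22.1 CPM in anagen and 23.1 CPM in catagen, and suprabasal epidermal-like cells 12.5 and 5.64 CPM, against 46.7 CPM (26.7 to 75.9) and 23.0 CPM (2.78 to 83.0) in endothelial-like cells. In CPM, LHX2 in the basal and suprabasal epidermal-like classes was hence no higher than the background. In telogen, inner root sheath-like cells were second among the named classes with 56.7 CPM (50.9 to 63.1). Mitotic-like cells followed with 53.7 CPM (49.0 to 58.7), and these 2 classes did not differ beyond counting error. S phase-like cells of telogen were lower, at 26.6 CPM (20.6 to 33.8). The level in inner root sheath-like cells was 20.3 CPM in anagen and 16.2 CPM in catagen, neither above the endothelial-like background, and the log2 ratios of telogen to them were 1.48 (1.16 to 1.82) and 1.81 (1.29 to 2.38). Markers of dividing cells moved with this. The summed level of 8 mitotic markers in inner root sheath-like cells was 298 CPM in anagen, 226 CPM in catagen and 1835 CPM in telogen, and that of 8 S phase markers was 64.7, 53.0 and 308 CPM. Their part in the difference was not tested.

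**Figure D2:**
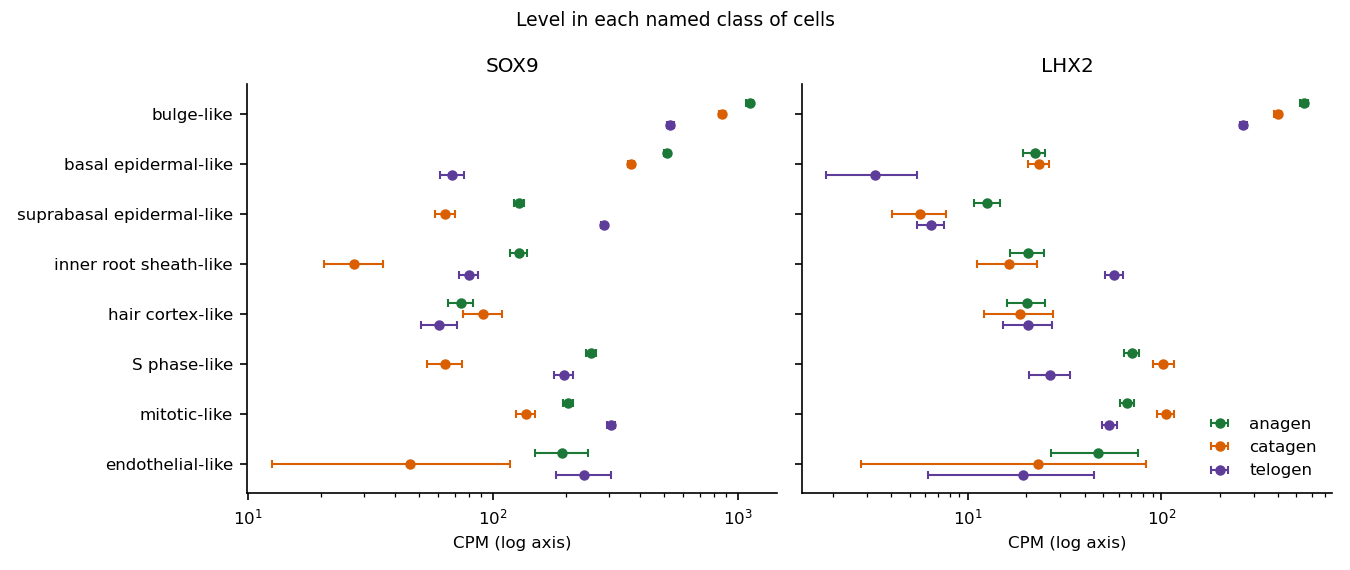
Level of SOX9 (left) and LHX2 (right) in 8 named classes of cells, in CPM on a log axis, with points coloured by library and 95% Poisson intervals. Bulge-like cells are highest for both genes, and the S phase-like and mitotic-like cells of catagen are low in SOX9 (63.8 and 137 CPM) but next to highest in LHX2 among these classes (102 and 105 CPM).

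SOX9 was higher than in the bulge-like cells in some clusters without a class name and, in telogen, also in the suprabasal epidermal-like T5. The highest level of anagen was in P17, led by FGF18 and PMP22, with 2732 CPM (2526 to 2950) in 51 cells. P10, led by ATP6V1B1 and TPM1, followed with 2117 CPM, P24, led by MMP7 and MGP, with 1917 CPM, P22, led by SLC15A1 and CA6, with 1700 CPM, and P1, led by the infundibulum keratin KRT79 and by ACKR4, with 1563 CPM. In catagen the order was P19, led by the companion layer keratin KRT75 and by TF, with 2048 CPM (1979 to 2118), then P24 with 1768, P17 with 1693 and P10 with 1545 CPM. P24 and P17 did not differ beyond counting error. In telogen, T17, led by TF and KLK12, had 1994 CPM (1921 to 2068) and T8, led by TAGLN and TPM1, had 941 CPM. Then came T16, led by MMP7 and MGP, with 708 CPM, T9, led by SLC15A1 and KLK6, with 683 CPM, and T5 with 590 CPM. The bulge-like T3 had 531 CPM and was not distinct from its neighbour in the order, T6, with 533 CPM.

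The genes parted in these clusters. In P24, SOX9 was at 1917 CPM in anagen and 1768 CPM in catagen, while LHX2 had 4 and 2 UMIs, or 10.8 CPM (2.95 to 27.7) and 5.67 CPM (0.69 to 20.5), and the matching telogen cluster T16 had SOX9 at 708 CPM and LHX2 at 10.9 CPM. P1 also had high SOX9 with LHX2 at 47.9 CPM in anagen and 33.3 CPM in catagen, below the rest of its library. P21, with TAGLN and ACTA2 among its leading genes, which encode proteins of the contractile cytoskeleton, was the reverse. LHX2 was there at 314 CPM in anagen and 367 CPM in catagen, with log2 ratios over the rest of 2.14 (1.96 to 2.32) and 1.82 (1.61 to 2.01), whereas those of SOX9 were -0.16 (-0.29 to -0.03) and -0.39 (-0.58 to -0.21). The mitotic-like P9 had LHX2 near the level of the rest of its library, with log2 ratios of -0.11 (-0.25 to 0.02) and -0.00 (-0.18 to 0.17), and SOX9 far below it, with -2.67 and -3.51.

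Both genes were high together in P10, P16 and P17 beside the bulge-like clusters. P16, led by PTHLH, ENPP1 and NGFR, had SOX9 at 1017 CPM in anagen and 793 CPM in catagen and LHX2 at 361 and 344 CPM. P10 had LHX2 at 230 and 260 CPM, and the telogen cluster T8, which shares 7 of 10 leading genes with it, had 209 CPM. In P17, LHX2 was at 411 CPM (333 to 500) in 51 anagen cells and 586 CPM (545 to 629) in 439 catagen cells, the highest level of catagen. Of the 26 pairs of neighbours in the order of clusters, 21 did not differ in LHX2 beyond counting error in anagen and 21 in catagen, and of 20 pairs in telogen 16 did not. For SOX9 the numbers were 11, 14 and 11.

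**Figure D3:**
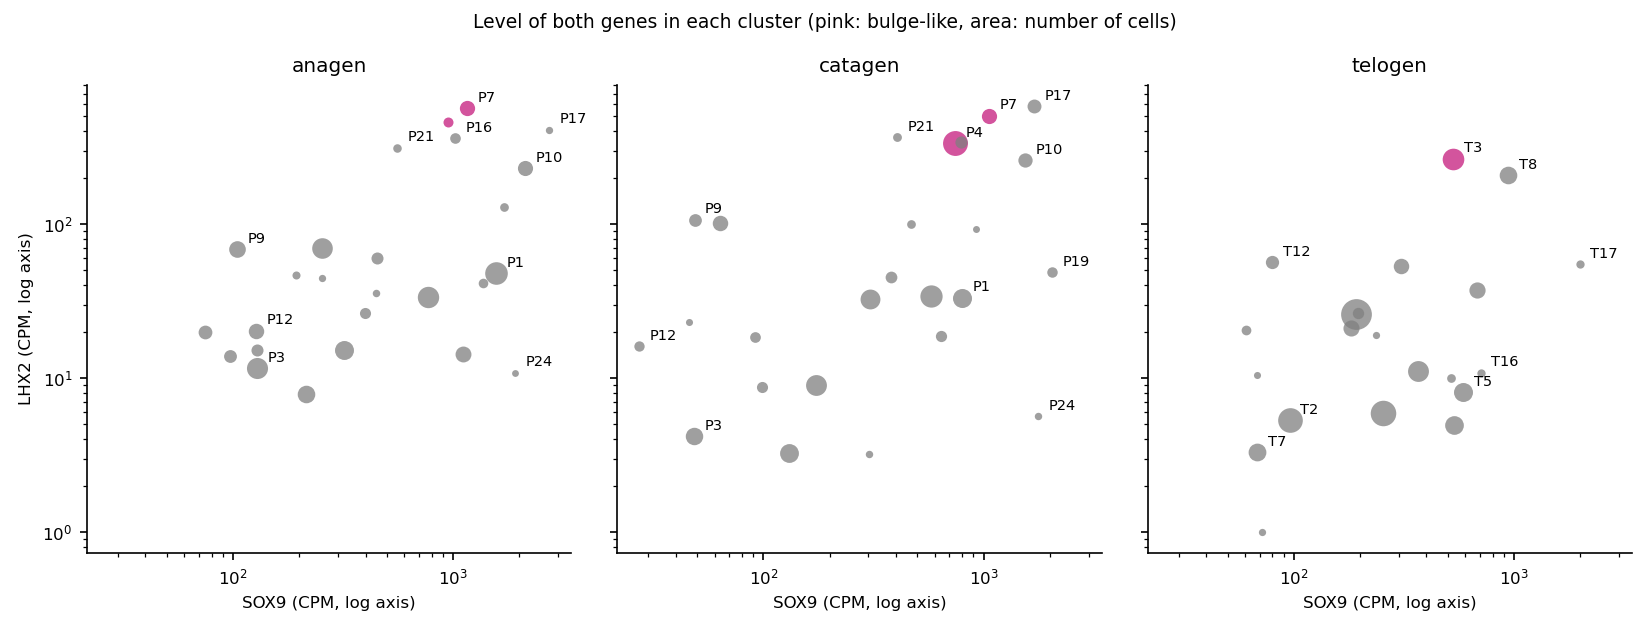
Level of LHX2 against SOX9 in each cluster with at least 30 cells, both in CPM on log axes, 1 panel per library, with bulge-like clusters in pink and the area of a point set by the number of cells (a cluster with 0 LHX2 UMIs is drawn at 1). P24 and T16 lie at the lower right with high SOX9 and little LHX2, P9 at the upper left of the catagen panel, and the bulge-like clusters, P10, P17 and T8 at the upper right.

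Within bulge-like cells, both genes were lower in catagen and in telogen than in anagen. For catagen over anagen the log2 ratio was -0.38 (-0.44 to -0.31) for SOX9 and -0.45 (-0.54 to -0.36) for LHX2. In cells with at least 1000 genes these were -0.16 and -0.20. In P7 alone they were -0.13 (-0.21 to -0.05) and -0.17 (-0.29 to -0.05), and in P4 alone -0.36 (-0.49 to -0.22) and -0.45 (-0.64 to -0.26). For telogen over anagen they were -1.08 (-1.14 to -1.01) and -1.04 (-1.14 to -0.95), and for telogen over catagen -0.70 (-0.76 to -0.64) and -0.59 (-0.68 to -0.50). The direction stayed the same with median-of-ratios size factors, but telogen over catagen shrank to -0.20 for SOX9 and -0.09 for LHX2. For LHX2 that difference was then no longer beyond counting error. The telogen class is T3, which matched P7 alone. For T3 over P7 of catagen the log2 ratios were -0.997 (-1.07 to -0.92) for SOX9 and -0.93 (-1.04 to -0.82) for LHX2. With median-of-ratios size factors they were -0.50 and -0.43.

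LHX2 thus had a lower level within bulge-like cells in catagen than in anagen and a higher level over the whole library. Taken as arithmetic over the 27 shared clusters, the log2 ratio of 0.54 for LHX2 in catagen over anagen was 0.58 when only the share of UMIs in each cluster was exchanged and 0.049 when only the levels within clusters were exchanged. Split into bulge-like and all other cells alone, the values were 0.46 and 0.27. For SOX9 the log2 ratio of -0.23 became 0.26 with shares alone and -0.56 with levels alone. The share of all UMIs in bulge-like cells was 4.02% in anagen and 9.66% in catagen, and these shares depend on which cells entered the libraries. For telogen over catagen, for which the split into bulge-like and all other cells alone could be made, the ratio of LHX2 was -0.94 with levels alone and -0.12 with shares alone. In this split the level of all other cells also changes with the clusters that make them up. P16, P17 and P21 held 9.33%, 13.9% and 3.89% of the LHX2 UMIs of catagen and had no matching telogen cluster. The value with levels alone can therefore not be read as a change within like cells.

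Across the 22 clusters with at least 50 cells in both anagen and catagen, SOX9 was lower in catagen beyond counting error in 18 and higher in 2, with a median log2 ratio of -0.46. The 2 exceptions were P14, led by H2AC6 and SPTAN1, with 1.97, whose catagen cells had a median of only 756 UMIs, and P19 with 0.58 (0.50 to 0.66). The lowest ratio was in inner root sheath-like cells, at -2.23 (-2.65 to -1.82), where the level in CPM was not above the endothelial-like background in either library. In the endothelial-like cells themselves the ratio of SOX9 was -2.07 (-3.99 to -0.64), so the background also differed between the libraries. In the S phase-like cluster P6, whose leading genes also include the proteoglycan gene DCN, the log2 ratio of SOX9 was -1.99 (-2.24 to -1.75) and that of LHX2 0.54 (0.32 to 0.77), and its catagen SOX9 level of 63.8 CPM lay within the interval of the background. In mitotic-like cells the ratios were -0.58 (-0.72 to -0.43) and 0.67 (0.48 to 0.86), but for SOX9 the clusters of that class were unlike, with -1.10 (-1.38 to -0.83) in P9 and 0.064 (-0.11 to 0.24) in P18. LHX2 was lower in 8 clusters, higher in 6 and not distinct in 8, with a median of -0.09. Of the 8 lower, only the bulge-like P4 and P7 had LHX2 above the endothelial-like interval in CPM. P1, P2, P3, P5, P15 and P20 were not above it in either library, and P20 had 1 LHX2 UMI in catagen. Of the 6 higher, P10 and P17 were above it in both libraries, P6, P9 and P18 in catagen alone, and P14 in neither. With median-of-ratios size factors, SOX9 was lower in 19 and higher in 2 clusters, and LHX2 lower in 9 and higher in 4.

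Telogen clusters were compared with those that shared at least 4 of 10 leading genes with them, which gave 14 matches. Against anagen, SOX9 was lower in 10 and higher in 2, and LHX2 lower in 7 and higher in 1. Against catagen, SOX9 was lower in 8 and higher in 5, and LHX2 lower in 5 and higher in 1. The 5 with higher SOX9 were T2, T12, T13, T15 and the endothelial-like T19, which is itself the background. In CPM, T2, T12 and T13 were not above the endothelial-like interval of SOX9, nor were their matches in catagen, and T15 was above it in telogen alone. Of the 8 with lower SOX9, T14 alone was not above it in either library. With median-of-ratios size factors the counts against anagen were 9 and 3 for SOX9 and 5 and 2 for LHX2, and against catagen 5 and 6 for SOX9 and 4 and 4 for LHX2. The highest ratio of SOX9 was in T15 against P15, which share CNFN and KLK5 among their leading genes, with 2.01 (1.82 to 2.20) to anagen and 2.38 (2.16 to 2.61) to catagen. The lowest was in T20 against P20, led by ELOVL3 and MBOAT2, with -2.55 (-3.02 to -2.11) and -2.16 (-2.71 to -1.63), from 42 telogen cells. T16 against P24 had -1.44 and -1.32. T17 against P19 had SOX9 at a log2 ratio of 0.54 (0.46 to 0.62) to anagen and -0.04 (-0.11 to 0.03) to catagen, the latter turning to 0.46 with median-of-ratios size factors. T8 against P10 had SOX9 at -1.17 (-1.22 to -1.12) to anagen and LHX2 at -0.14 (-0.26 to -0.02), which turns to 0.10 with median-of-ratios size factors. The interval of SOX9 lay below that of LHX2 in these cells, and this does not depend on the scaling, which moves both genes by the same amount. T9 against P22 had -1.32 for SOX9 and -1.79 for LHX2 to anagen. The basal epidermal-like cells of telogen were the CCL27 cluster T7 alone, in which SOX9 was at 68.3 CPM, against 214 CPM in anagen and 130 CPM in catagen in the matching P5.

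SOX9 and LHX2 were found in the same cells more often than their shares alone give. In cells thinned to 1500 UMIs, 6.39% of anagen, 8.36% of catagen and 3.77% of telogen cells were expected to hold both, or 766, 819 and 436 cells, against 509, 517 and 267 if detection had been independent over all cells. Of the cells with LHX2, 63.0% also held SOX9 in anagen, 59.3% in catagen and 55.7% in telogen, against 39.5%, 33.9% and 32.4% of the cells without it. Of the cells with SOX9, 15.3%, 22.3% and 11.1% held LHX2. The odds ratio over all cells was 2.61 (2.31 to 2.95) in anagen, 2.85 (2.53 to 3.2) in catagen and 2.61 (2.26 to 3.03) in telogen.

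Within the classes of cells this excess was smaller. Independence within each class or unnamed cluster gives 709, 771 and 390 cells with both. The odds ratio pooled within classes was 1.40 (1.2 to 1.62) in anagen, 1.30 (1.12 to 1.5) in catagen and 1.42 (1.2 to 1.68) in telogen. Without thinning it was higher in catagen and telogen, with log2 values of 1.19 and 1.34 against 0.37 and 0.51, and the part of depth and of mixed clusters in these values was not tested. In bulge-like cells, 38.7% of anagen, 26.2% of catagen and 18.2% of telogen cells held both, with odds ratios of 1.21 (0.88 to 1.66), 1.19 (0.97 to 1.47) and 1.28 (1.0 to 1.65). Bulge-like cells gave 36.7% of the anagen, 48.4% of the catagen and 46.6% of the telogen cells with both. P10 gave 17.1% and 11.8% in anagen and catagen, P17 gave 17.8% in catagen, and T8 gave 33.3% in telogen. Where at least 5 cells were expected in each field, which held for 13 anagen, 8 catagen and 6 telogen strata, the interval lay above 1 in 1 stratum of each library and below 1 in 0. These were the suprabasal epidermal-like class of anagen, at 4.30 (1.99 to 9.32), and of telogen, at 2.55 (1.10 to 5.88), and P17 in catagen, at 1.73 (1.03 to 2.89). In the suprabasal epidermal-like classes LHX2 was not above background in CPM, and 0.77% and 0.44% of cells held both genes. That of telogen joined T2 and T5, with SOX9 at 95.7 and 590 CPM. Doublets, which are droplets with more than 1 cell, were left in for all these values.

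The level of SOX9 also went up with the number of LHX2 UMIs in a cell. Over all cells, anagen cells with 0, 1 and at least 2 LHX2 UMIs had SOX9 at 517, 649 and 1100 CPM, catagen cells at 411, 687 and 1026 CPM and telogen cells at 335, 500 and 609 CPM. In bulge-like cells the range was narrower, from 896 to 1176 CPM in anagen, from 753 to 1062 CPM in catagen and from 491 to 550 CPM in telogen. Cells with at least 2 LHX2 UMIs were also deeper than those with 0 in every library, with medians of 4287 and 3366.5 UMIs in the anagen bulge-like cells. Over all catagen cells, those with 1 LHX2 UMI were shallower than those with 0, at medians of 2963.5 and 3285 UMIs. With the cells of each library split by depth into 4 groups of near equal size, from the shallowest to the deepest group, LHX2 went from 116 to 52.4 CPM in anagen and from 192 to 75.9 CPM in catagen, while the share of bulge-like cells went from 8.74% to 1.67% and from 32.1% to 2.15%. Telogen did not follow this, with LHX2 at 67.2, 78.8, 41.1 and 44.8 CPM and a bulge-like share of 4.14%, 15.7%, 7.70% and 5.57%.

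**Figure D4:**
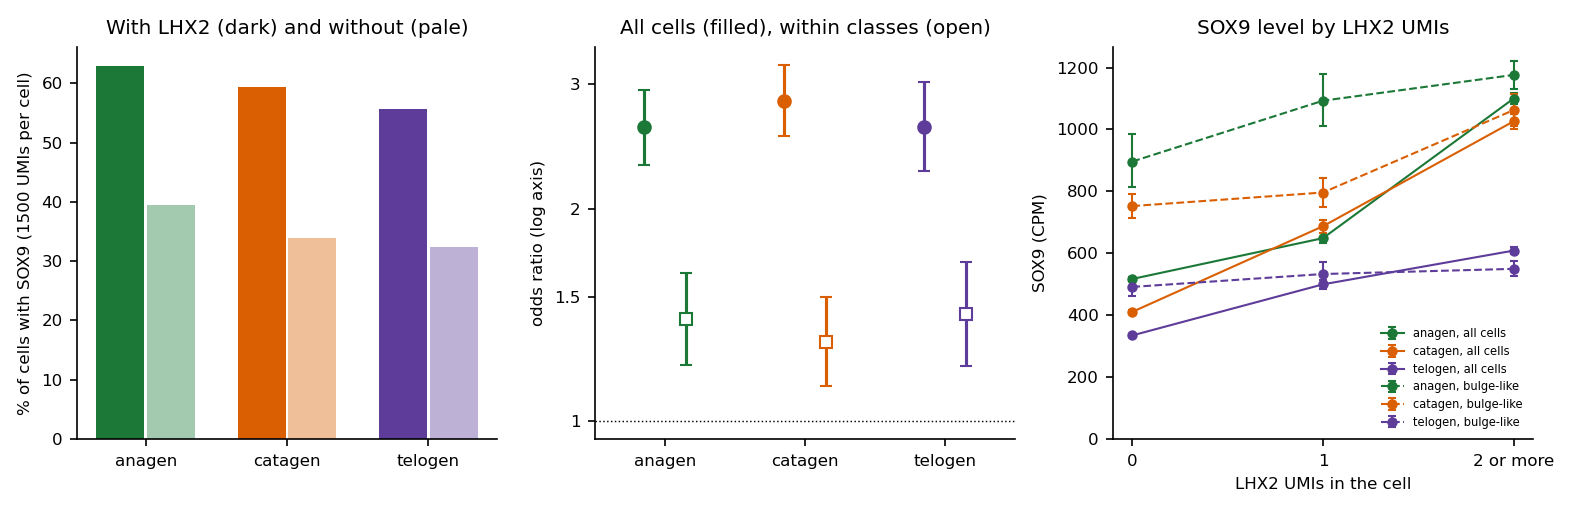
Share of cells with SOX9 among cells with and without LHX2 after thinning to 1500 UMIs (left), odds ratio of detecting both over all cells and pooled within classes on a log axis with 95% intervals (middle), and SOX9 in CPM by the number of LHX2 UMIs in the cell, with Poisson intervals, for all cells and for bulge-like cells (right). The pooled odds ratios, from 1.30 to 1.42, lie below those over all cells, from 2.61 to 2.85.

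The genes whose level across clusters was most like that of the pair were found by Pearson's r of log2(CPM + 10), over 25 anagen, 23 catagen and 18 telogen clusters and 2520 genes, ranked by the lowest r of the 3 libraries. These clusters were built from the same genes and share libraries, so r is a description with no test. For SOX9 they were BARX2, a homeobox factor, with at least 0.86, KRT17, a keratin of the outer root sheath and companion layer, with 0.80, ACTN1 and GSN, which encode actin-binding proteins, with 0.79 each, CRYAB, a small heat shock protein, with 0.78, and NMB, a neuropeptide of the bombesin family, with 0.70. For LHX2 they were TAGLN with at least 0.78, PPP2R2B, HSPA4L and RAI14 with 0.72 each, TPM1 with 0.71 and TCF4 with 0.70. TAGLN, TPM1 and RAI14 encode actin-associated proteins, and TCF4 is a basic helix-loop-helix factor. LHX2 itself had r of 0.63, 0.45 and 0.33 with SOX9, which ranked 197th for SOX9 and 111th for LHX2.

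Other factors of the bulge and germ gave a frame for these values. All 14 on the list were on the gene list, and 10 reached 10 CPM in a library. Past a ratio of 2 in bulge-like over all other cells were 6 of 11 tested in anagen, 4 of 12 in catagen and 3 of 11 in telogen, where 10.4%, 7.83% and 7.16% of all genes were, and the median log2 ratio was 1.31, 0.87 and 0.66 against -0.08, -0.09 and -0.04 over all genes. NFATC1, 1 of the 14, was also a marker used to name the class. The most abundant were NFIB, a nuclear factor I of the follicle stem cells, with log2 ratios of 2.20, 1.47 and 1.74, ETS2 with -0.46, 0.53 and 0.23, KLF5, a factor of basal keratinocytes, with -0.71, -0.61 and -0.16, and NFIX with 1.35, 0.91 and 0.60. TCF7L1 and TCF7L2, the Wnt pathway factors of the bulge, were picked out after their values had been seen, with 3.85, 2.93 and 2.56 for TCF7L1 and 1.73, 1.24 and 1.54 for TCF7L2. Between libraries, 1 of 10 of the list was higher and 1 lower past 2-fold in catagen over anagen (4.41% and 3.47% of all genes), 2 of 9 were lower in telogen over anagen (7.83%), and 3 of 10 were lower in telogen over catagen (12%), by library total.

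**Figure D5:**
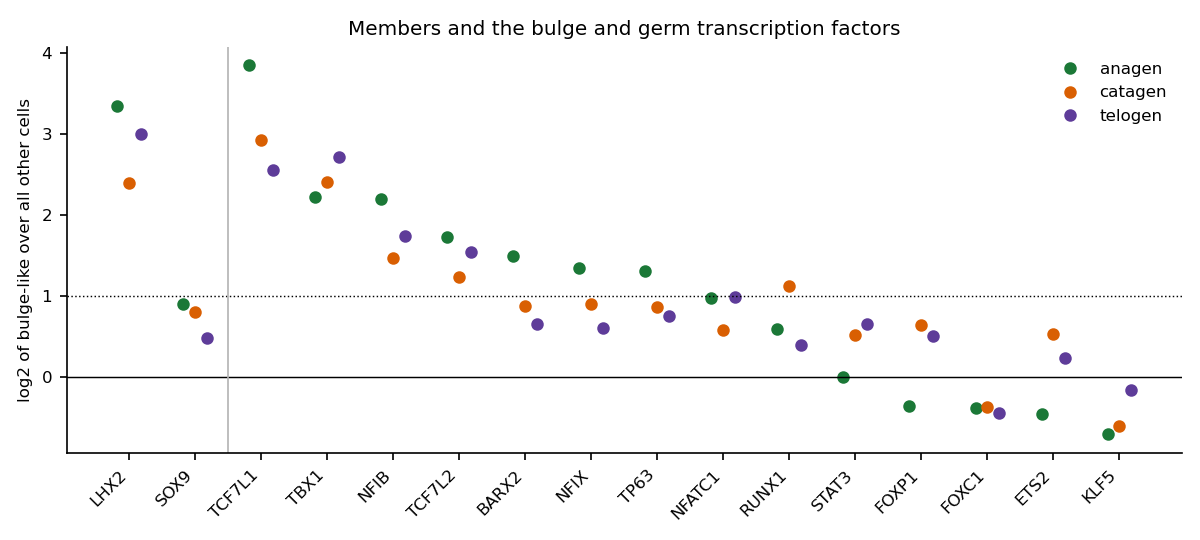
Log2 ratio of the level in bulge-like over all other cells for LHX2, SOX9 and the 14 bulge and germ factors (no pseudocount), with 1 point per library and a dotted line at a ratio of 2. LHX2 lies from 2.40 to 3.35 and SOX9 from 0.48 to 0.91, and the factors run from TCF7L1 at the left to KLF5 at the right, which lies below 0.

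The hair and sheath lineage factors that reached 10 CPM mostly lay lower in bulge-like than in other cells. Of 13 listed, 10 were on the gene list and 7 reached 10 CPM. Past 2-fold higher in bulge-like cells were 0 of 7 tested in anagen, 0 of 6 in catagen and 0 of 3 in telogen. Of all genes 10.4%, 7.83% and 7.16% were, so 0 of so few is near that background. The median log2 ratio was -2.29 in anagen, -3.04 in catagen and -2.21 in telogen, against -0.08, -0.09 and -0.04 over all genes. HOXC13 went the other way in catagen, with 0.32. Below 10 CPM, so did VDR with 2.28, 1.49 and 1.21 and FOXI3 with 0.38, 0.42 and 0.09. The most abundant were DLX3, with -2.52, -2.89 and -2.58, GATA3, a factor of the inner root sheath, with -0.41, -0.77 and -0.51, LEF1, the Wnt pathway factor of the hair matrix, with -2.40, -3.53 and -4.02, and FOXN1 with -2.29, -3.18 and -2.21. Past 2-fold, 0 of 7 differed in catagen over anagen, 4 of 7 were lower in telogen over anagen (7.83% of all genes) and 3 of 6 in telogen over catagen (12%), by library total. LEF1 was at 27.5 CPM in anagen and 6.32 CPM in telogen. In bulge-like cells LEF1 was at 5.40, 1.81 and 0.42 CPM, so its ratios there rest on few UMIs, and it was not among the 3 tested in telogen.

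Of the other SOX genes 11 of 13 were on the gene list, and SOX4 alone reached 10 CPM, with 69.8 CPM in anagen, 84.2 CPM in catagen and 33.3 CPM in telogen. Its log2 ratio was -1.07 for telogen over anagen and -1.34 for telogen over catagen, and 0.34, -0.04 and 0.63 for bulge-like over other cells. Of 19 LIM domain factors and partners of LHX2, 16 were on the gene list, and the most abundant of the other LHX genes was LHX1 with 0.19 CPM in catagen. The cofactors SSBP4, SSBP3 and LDB1, which take part in complexes of LIM factors, were the 3 that reached 10 CPM. LDB1 was at 7.76, 13.9 and 6.0 CPM, with a log2 ratio of -1.21 for telogen over catagen, and in bulge-like over other cells the log2 ratios were 1.27, 1.03 and 0.41 for SSBP3, 0.70, 0.66 and 0.13 for LDB1 and 0.040, 0.72 and -0.15 for SSBP4.

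The cartilage genes that SOX9 is known to control had very few UMIs. Of 8 listed, 7 were on the gene list, and the highest level was 0.29 CPM, for MATN1 in anagen, while HAPLN1 had 0 UMIs in all 3 libraries. Of the hedgehog pathway, all 9 genes were on the gene list and 2 reached 10 CPM. The receptor PTCH1 was at 12.9 CPM in anagen, 14.6 CPM in catagen and 3.04 CPM in telogen, with log2 ratios of -2.08 and -2.26 for telogen over anagen and catagen. The factor GLI3 was at 4.96, 13.9 and 4.94 CPM, with a log2 ratio of 1.49 for catagen over anagen, and in bulge-like over other cells it had 1.59, 1.18 and 1.48, against -0.44, -0.71 and 0.27 for PTCH1. These ratios have no test, and the low levels rest on few UMIs.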

How the data were processed

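The deposited matrices hold UMI counts per gene and cell, which the authors made with Cell Ranger: the submitters' notes name version 2.1.1, and the file headers name 4.0.0, 3.1.0 and 6.0.2 for anagen, catagen and telogen. The members and gene lists were chosen with earlier results of these data known. Cells with at least 200 genes were kept. CPM are summed counts over summed UMIs, with exact Poisson intervals. Shares have Clopper-Pearson, ratios conditional binomial and single odds ratios Woolf intervals, and log2 ratios have no pseudocount. Odds ratios pooled within classes are Mantel-Haenszel estimates with the interval of the pooled estimate. Thinning to 1500 UMIs per cell used the exact expectation, chosen after single draws were seen to differ. Anagen and catagen were integrated with Seurat 5.3.0 in R 4.3.3 and telogen was clustered alone (2000 variable genes, 30 components, resolution 0.8). A cluster took a class's name with at least 3 markers and 50% of them raised 1.5-fold (10 CPM added) and 1 among its 10 leading genes, thresholds set after the clusters were seen. Scrublet called 0, 1 and 0 cells, and doublets were left in. So few calls do not show that doublets were rare. Named genes are both factors, the 6 most like each, and up to 4 of each list with at least 10 CPM. TCF7L1, TCF7L2, NFATC1, HOXC13, VDR, FOXI3, LHX1, MATN1 and HAPLN1 fall outside this rule and were chosen after their values were seen. Python 3.11.15, numpy 2.4.6, pandas 2.3.3, scipy 1.17.1, scanpy 1.11.5 and matplotlib 3.10.9 were used. The code was tested on simulated data.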

Additional observations from a re-analysis of the deposited data

How the results depend on the processing

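With 1 library per stage, no alternative measures the spread between animals, and shallow cells limit what can be said of LHX2, a gene at 1 UMI in many cells. Of the values in this set, 115 moved by less than their interval, 97 moved further and 1 changed sign, and those below are the moves in the comparisons themselves. That count of 1 does not cover the ratios of matched clusters, some of which also changed sign with median-of-ratios size factors. LHX2 in T8 over P10 of anagen turned from -0.14 to 0.10, and SOX9 in T17 over P19 of catagen from -0.04 to 0.46. No paired analysis was possible because each stage has 1 library and no result comes from a test.

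With median-of-ratios size factors, the log2 ratios for catagen over anagen, telogen over anagen and telogen over catagen were -0.48, -0.42 and 0.064 for SOX9, the last with its direction reversed, and 0.28, -0.33 and -0.62 for LHX2. With the mean over cells of CPM they were -0.30, -0.86 and -0.55 for SOX9, and LHX2 had 0.62 for catagen over anagen and -1.23 for telogen over catagen. With at least 2404 UMIs required of every cell, catagen over anagen and telogen over catagen were -0.27 and -0.39 for SOX9 and 0.38 and -1.0 for LHX2. With at least 1000 genes per cell, SOX9 had -0.20 for catagen over anagen and -0.62 for telogen over anagen, and LHX2 had 0.40, -0.63 and -1.03 in the 3 comparisons. Without a minimum level, 4138 genes were higher and 1986 lower past 2-fold in catagen over anagen, 1807 and 4063 in telogen over anagen, and 1776 and 6304 in telogen over catagen.

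For bulge-like over other cells, the minimum of 1000 genes gave 0.97 in catagen and 0.42 in telogen for SOX9 and 2.65 and 2.91 for LHX2. With 15 components SOX9 had 1.06 in anagen and 1.10 in catagen, past 2-fold, and LHX2 3.02 in catagen and 3.12 in telogen. With each library clustered alone, SOX9 had 1.0 in anagen and LHX2 2.55 in catagen. LHX2 in catagen had 2.53 at resolution 0.4 and 2.53 with the markers left out of the variable genes, and LHX2 in anagen 3.46 without the 5% of cells with the highest Scrublet scores.

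Within bulge-like cells, the minimum of 1000 genes gave SOX9 -0.16 for catagen over anagen and -0.94 for telogen over catagen, and LHX2 -0.20, -1.17 and -0.98 in the 3 comparisons. With 15 components SOX9 had -1.16 for telogen over anagen and -0.83 for telogen over catagen, and LHX2 -0.24, -0.68 and -0.44 in the 3 comparisons. With libraries clustered alone, SOX9 had -0.44 for catagen over anagen and LHX2 -0.93 for telogen over anagen. At resolution 0.4, LHX2 had -0.88 for telogen over anagen and -0.49 for telogen over catagen, and with markers left out -0.89 for telogen over anagen. The cause of these moves was not tested.

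The log2 odds of detecting both genes, pooled within classes, were 0.48, 0.37 and 0.51 in anagen, catagen and telogen. Without thinning they were 1.19 in catagen and 1.34 in telogen, and thinned to 3000 UMIs 0.74 in catagen. Single clusters as strata and 3 single random draws were added after seeing the data, and the draws gave 0.34 to 0.60 in anagen, 0.29 to 0.49 in catagen and 0.48 to 0.55 in telogen.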
